A study of Mus musculus with 6 samples.

Results

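Of 8 genes of fatty acid uptake and lipoprotein lipolysis, Cd36 was the one whose signals lay apart by diet in the mouse aorta: all 3 of its probe sets were higher on all 3 high fat arrays than on all 3 chow arrays. The difference did not pass adjustment over all probe sets. The 8 genes were Cd36, Slc27a1, Slc27a2, Slc27a3, Slc27a4, Lpl, Vldlr and Angptl4. They were taken as every probe set whose single gene symbol in the platform annotation was one of these names. All 8 genes were found, with 15 probe sets of 22626 on the array, where 12393 genes had a probe set with 1 symbol.

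RNA of aortas was measured on 6 Affymetrix arrays, 3 for mice on a high fat diet and 3 for mice on regular chow, each with a pool of 3 aortas stripped of adventitia and of the fat around the vessel. All mice were of the inbred strain C57BL/6J, which gains weight readily on fatty food, and were male where a sex was labelled, which it was not for high fat replicate 1. High fat feeding lasted 16 to 18 weeks, and in high fat replicates 2 and 3 it started when mice were 10 weeks old. Mice of high fat replicate 1 were labelled as 16 to 20 weeks old and those of chow replicates 2 and 3 as 26 to 28 weeks old, with none given for chow replicate 1. By these labels high fat replicates 2 and 3 were 26 to 28 weeks old at the end of the diet, as were chow replicates 2 and 3, and the ages of the other 2 arrays are unclear. The pools were described as independent, and n = 3 pools per diet holds for every value.

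Long-chain fatty acids reach tissue mainly in triglyceride-rich lipoproteins. Lipoprotein lipase, the product of Lpl, is made by adipocytes, muscle cells and macrophages, moves to the capillary surface and frees fatty acids from triglyceride there. The very low density lipoprotein receptor, Vldlr, binds such particles, and Angptl4 is a secreted inhibitor of lipoprotein lipase. Freed fatty acids enter cells with the help of the membrane receptor Cd36 and of the fatty acid transport proteins of the Slc27a family, which also join long-chain or very long-chain fatty acids to coenzyme A. Cd36, Lpl, Slc27a1 and Angptl4 are known targets of PPAR transcription factors, nuclear receptors that bind fatty acids.

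The promoters of members are shown where they held the half-site AGGTCA, the 6-base unit that PPAR and other nuclear receptors bind, searched on both strands in 250 bases before to 50 after each annotated start (RefSeq, GRCm38.p6). Windows were found for 6 of the 8 genes, 9 windows in all. There was none for Lpl and Angptl4, so these were not searched. Cd36 and Slc27a2 held 1 match each, on the reverse strand, so that it reads TGACCT as printed, in capitals. For Cd36 the window is chr5:17835847-17836146, minus strand, with the match starting 228 bases before the start site, and for Slc27a2 it is chr2:126552774-126553073, plus strand, with the match starting 220 bases before it.
Cd36: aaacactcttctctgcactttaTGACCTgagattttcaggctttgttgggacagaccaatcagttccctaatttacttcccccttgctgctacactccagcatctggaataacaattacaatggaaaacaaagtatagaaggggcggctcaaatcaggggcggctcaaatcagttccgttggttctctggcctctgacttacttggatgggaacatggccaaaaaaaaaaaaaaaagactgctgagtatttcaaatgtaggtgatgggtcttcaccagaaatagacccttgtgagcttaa
Slc27a2: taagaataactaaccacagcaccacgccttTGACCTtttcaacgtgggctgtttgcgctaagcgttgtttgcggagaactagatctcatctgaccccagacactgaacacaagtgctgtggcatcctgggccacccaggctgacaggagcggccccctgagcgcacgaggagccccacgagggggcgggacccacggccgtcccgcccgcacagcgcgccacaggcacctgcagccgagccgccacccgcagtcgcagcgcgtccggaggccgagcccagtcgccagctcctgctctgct
The same letters were found in 16.3% of all 32851 promoter windows, so a match here is common. The full repeat AGGTCANAGGTCA, which holds the half-site at both ends, was in 0 of the 9 member windows and in 0.0396% of all windows. The diets did not overlap for Cd36 and did for Slc27a2. The array data do not say which start site was in use.

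Signals are MAS5 intensities on a linear scale, each drawn from the paired matching and mismatching probes of 1 probe set, and the deposited scaling gave each array the same 2% trimmed mean of 150.05. Median signals lay between 58.4 and 66.6, and the 3' actin control divided by the 5' one gave 1.27 to 1.94, highest on high fat replicate 2. Smooth muscle markers were strong on all arrays, Acta2 at 7181 to 9545 and Myh11 at 3212 to 3920. Markers of adipocytes were also present on all arrays, with the brown adipocyte protein Ucp1 at 2122 to 3664 and the adipocyte hormone adiponectin, Adipoq, at 1559 to 2190. Fewer cells of a type and less RNA per cell cannot be told apart in such pools. Signals of different probe sets are not compared with each other, since probes differ in brightness.

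Diets were compared with limma on log2(signal + 6) over the 13575 probe sets above a filter. It was set on the mean of this log2 scale, at a value that corresponds to a signal of 40.7. Fold changes are differences on this scale, on which those of dim probe sets come out too small. Of the member probe sets 12 passed the filter, from 7 genes, and 3 did not, those of Slc27a3 and 1 each of Vldlr and Angptl4. None of the 12 passed an adjusted p of 0.05, against 0.0737% of all probe sets tested, and 3 had an unadjusted p under 0.05, all from Cd36. For an unadjusted p under 0.05 the share over all probe sets was 3.92% higher and 3.11% lower on high fat diet. Of the 12, 7 had higher and 5 lower means on high fat diet, and the median of their log2 fold changes was 0.07, while over all probe sets tested 48.2% had higher means and the median was -0.01.

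**Figure D1:**
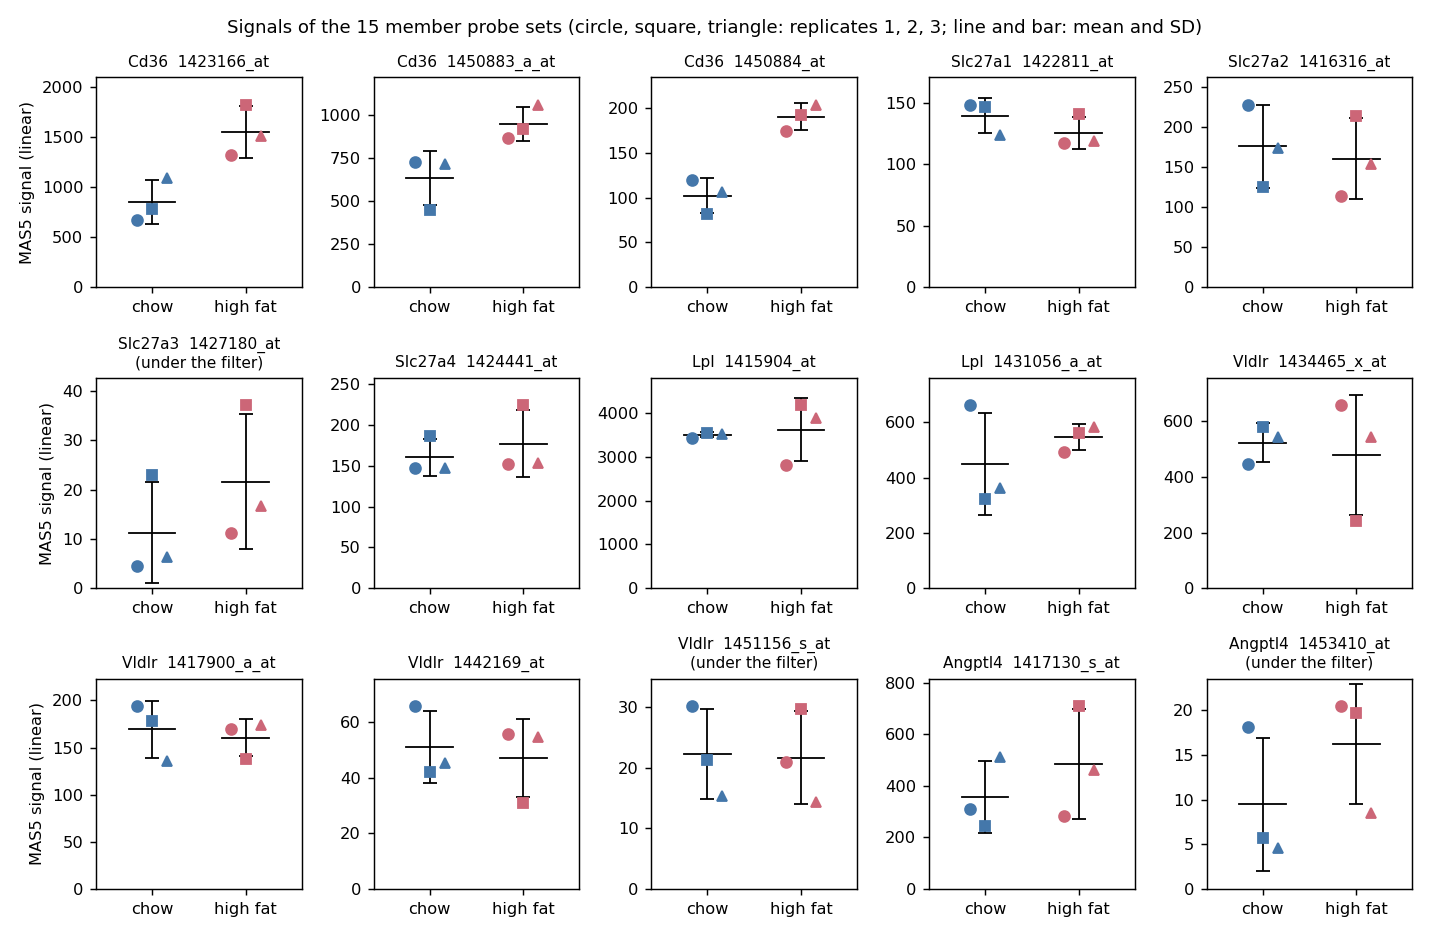
MAS5 signals (linear scale, each panel from 0) of the 15 member probe sets on chow and high fat arrays. Circles, squares and triangles are replicates 1, 2 and 3, lines are means and bars SD (n = 3), and the diets lie apart in the 3 Cd36 panels alone.

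Cd36 encodes a scavenger receptor and fatty acid translocase of adipocytes, muscle, capillary endothelium and macrophages. Its probe set 1423166_at had signals of 678.4, 781.5 and 1096 in chow replicates 1, 2 and 3 and of 1324, 1828.7 and 1510.5 in high fat replicates 1, 2 and 3. The diets did not overlap, and the nearest arrays were chow replicate 3 and high fat replicate 1. The mean was 852 ± 218 on chow and 1554 ± 255 on high fat diet (SD, n = 3 pools), which is a log2 fold change of 0.88 ± 0.19 (SE; 95% interval 0.46 to 1.30, adjusted p = 0.299, limma). A second probe set, 1450884_at, had 119, 81.6 and 106.1 on chow and 174, 192.1 and 203.4 on high fat diet, again with no overlap. Its log2 fold change was 0.87 ± 0.18 (95% interval 0.47 to 1.27, adjusted p = 0.295, limma). The third, 1450883_a_at, had 728.7, 451.1 and 716.6 on chow and 867.3, 916.6 and 1058.7 on high fat diet. Here chow replicate 2 stood below the other chow arrays, and the log2 fold change of 0.61 ± 0.19 (95% interval 0.19 to 1.03, adjusted p = 0.518, limma) was 0.38 without it.

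The 3 Cd36 probe sets carry the same accession in the annotation and were read on the same 6 arrays, so they are repeat readings of 1 gene and not separate evidence. They ordered the arrays of one diet differently. Among the chow arrays, replicate 1 was lowest by 1423166_at and highest by the other two. Diets did not overlap, with high fat arrays higher, for 3 of the 12 member probe sets, against 6.26% of all probe sets tested, and with high fat arrays lower for 0, against 6.08%. With each array left out in turn, the log2 fold change of 1423166_at lay between 0.73 and 1.08 and that of 1450884_at between 0.72 and 0.98, each with an unadjusted p under 0.05.

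**Figure D2:**
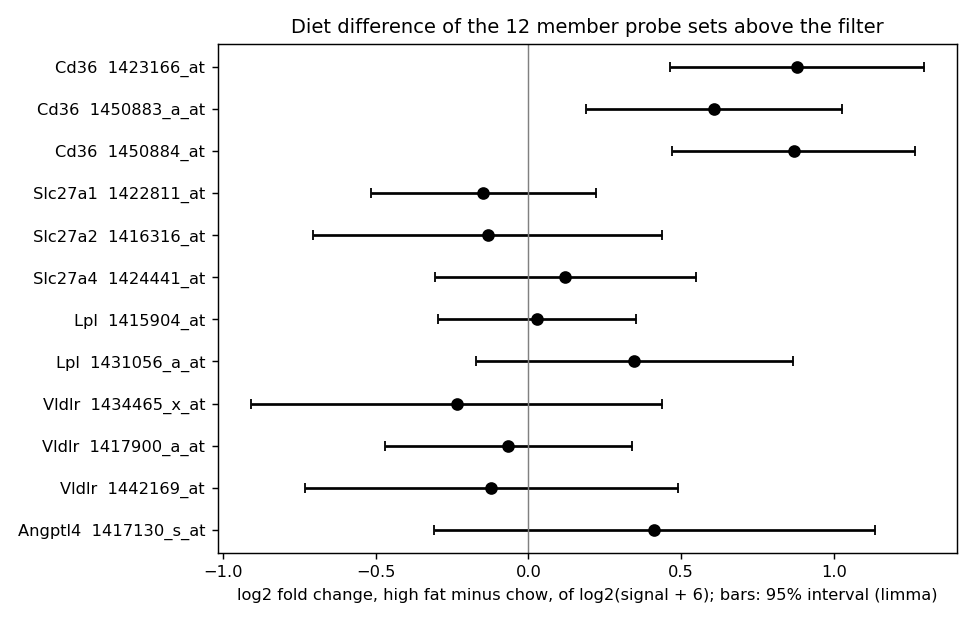
Log2 fold changes (high fat minus chow, points) of the 12 member probe sets above the filter, with 95% intervals from limma (bars). The intervals of the 3 Cd36 probe sets lie above 0, and those of the other 9 include 0.

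The Slc27a family encodes the fatty acid transport proteins. Slc27a1, the form of muscle and fat, had signals of 148.6, 146.8 and 123.7 on chow and 117, 140.7 and 118.8 on high fat diet. The diets overlapped, and the log2 fold change was -0.15 ± 0.17 (95% interval -0.52 to 0.22, adjusted p = 0.882, limma). Slc27a4, which is widely expressed and takes part in fatty acid uptake in skin and gut, had 147.2, 186.7 and 147.4 on chow and 152.1, 224 and 153.8 on high fat diet. Replicate 2 was highest within each diet, and the log2 fold change was 0.12 (95% interval -0.31 to 0.55, adjusted p = 0.916, limma).

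Slc27a2, a very long-chain acyl-CoA synthetase known mainly from liver and kidney, had 228.5, 125.8 and 174.4 on chow and 114, 214.6 and 153.7 on high fat diet. Its values spread about as widely within each diet, with SDs of 51.4 and 50.7, and the log2 fold change was -0.13 (95% interval -0.70 to 0.44, adjusted p = 0.936, limma). Liver markers were highest on chow replicate 3, at a mean log2 deviation of 1.19 from the average of the 6 arrays, where Slc27a2 stood at 0.09. Slc27a3, a family member with acyl-CoA synthetase activity, had 4.5, 23 and 6.3 on chow and 11.2, 37.1 and 16.6 on high fat diet, below the filter on every array. Without a filter its log2 fold change was 0.72 (95% interval -0.32 to 1.77, adjusted p = 0.880, limma), an interval too wide to set a direction.

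Lpl encodes the lipase that acts on circulating triglyceride. Its probe set 1415904_at had 3433.8, 3552.9 and 3517.8 on chow and 2809.7, 4175.5 and 3874.4 on high fat diet. The chow arrays lay within an SD of 61.2, while the high fat arrays, with an SD of 718, lay on both sides of them. The log2 fold change was 0.03 ± 0.15 (95% interval -0.30 to 0.35, adjusted p = 0.977, limma). The second probe set, 1431056_a_at, had 661.1, 323.2 and 362.3 on chow and 492.7, 560.6 and 582.7 on high fat diet. Chow replicate 1 was the highest of the 6 arrays and the other chow arrays were the lowest, with a log2 fold change of 0.35 (95% interval -0.17 to 0.87, adjusted p = 0.805, limma). Without chow replicate 1 it was 0.66 (adjusted p = 0.478, limma), and without chow replicate 2 it was 0.15. The Lpl probe sets thus differed in which arrays stood out, and neither gave a difference between the diets that passed.

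Vldlr encodes a receptor for triglyceride-rich lipoproteins. The probe set 1434465_x_at had 446.4, 580.8 and 543.6 on chow and 657.5, 240.1 and 542.5 on high fat diet. High fat replicate 2 was far below the other 5 arrays, with a log2 deviation of -0.98. The same array was lowest by 1442169_at, at 30.8 against 41.9 to 65.8 on chow and 54.5 and 55.6 on the other high fat arrays. By 1417900_a_at it had 138.2, where the lowest array was chow replicate 3 at 135.9. Log2 fold changes were -0.23, -0.12 and -0.07, with 95% intervals of -0.91 to 0.44, -0.73 to 0.49 and -0.47 to 0.34 (limma). Without high fat replicate 2 they were 0.20, 0.12 and 0.04, so the sign of all 3 turned without that array. Without chow replicate 1 the signs of 1442169_at and 1417900_a_at turned too, at 0.06 and 0.04. The fourth probe set, 1451156_s_at, lay between 14.4 and 30.2 and did not pass the filter. The suffixes _x_at and _s_at mark probe sets that can bind transcripts of related genes.

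Angptl4 encodes the inhibitor of lipoprotein lipase that fasting and fatty acids induce. Its probe set 1417130_s_at had 310.9, 243.6 and 512.9 on chow and 282.5, 710 and 461.5 on high fat diet. High fat replicate 2 was the highest array, and chow replicate 3 lay above both other high fat arrays. The log2 fold change was 0.41 ± 0.33 (95% interval -0.31 to 1.13, adjusted p = 0.833, limma), the widest interval among the 12 tested probe sets. Without high fat replicate 2 it was 0.09, and without high fat replicate 1 it was 0.75 (adjusted p = 0.506, limma). The second probe set, 1453410_at, lay between 4.6 and 20.5 and did not pass the filter.

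Cd36 was also set against each other member within an array, as the difference of their mean log2 values over the probe sets above the filter. Such a difference shows unequal change between a pair of genes and not that one of them stayed the same. Relative to Lpl, Cd36 stood 0.39, 0.24 and 0.27 above the average of the 6 arrays in high fat replicates 1, 2 and 3, and at -0.54, -0.39 and 0.04 in chow replicates 1, 2 and 3. The diets did not overlap, and the difference was 0.60 on the log2 scale. Relative to Slc27a1, Slc27a2, Slc27a4 and Vldlr the differences were 0.93, 0.92, 0.67 and 0.93, again without overlap. Relative to Angptl4 it was 0.37, with overlap. An exact permutation test, two-sided, gave p = 0.1 for the 5 pairs without overlap, the smallest that 3 pools against 3 allow, and 0.4 for Angptl4 (adjusted over the 6 pairs 0.12 and 0.4). These pairs were set up after the Cd36 values had been seen, and all 6 share those same values. They are therefore not separate evidence, and the test adds no support to the Cd36 difference.

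Markers of several cell types that make these proteins were set beside the members, with 1 probe set per gene. Brown adipocyte markers had higher means on high fat diet for 7 of the 8 above the filter, at a median log2 fold change of 0.50 against 0.01 over all 8326 genes. Their summed signal lay between 6829 and 8970 on chow and between 10459 and 12699 on high fat diet. Macrophage markers had higher means for 10 of 11, with a median of 0.60 and summed signals of 2681 to 3527 on chow and 3634 to 5930 on high fat diet. Of 10 endothelial markers 9 had higher means, with a median of 0.26 and sums of 1793 to 1942 on chow and 1989 to 2404 on high fat diet. Schwann cell markers, with 3 of 3 higher and a median of 0.43, had sums of 201.5 to 268.7 on chow and 288.8 to 443.6 on high fat diet. In each of these 4 lists the summed signals of the diets did not overlap, as for Cd36. Among the 3 Schwann cell markers only S100b lay apart by diet, with a log2 fold change of 1.21. For Sox10 and Mbp, at 0.43 and 0.38, the diets overlapped, so the Schwann cell sums rest largely on S100b. By the mean log2 deviation the diets did overlap for brown adipocyte markers, with high fat replicate 1 at -0.09 and chow replicate 3 at -0.01. By that measure they also overlapped for macrophage markers, with high fat replicate 1 at -0.094 and chow replicate 1 at -0.085.

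White adipocyte markers, 4 of 5 with higher means and with sums of 2596 to 3310 on chow and 2754 to 2875 on high fat diet, did overlap. The fifth, the adipocyte hormone resistin, Retn, fell from 464 ± 70.7 on chow to 216.9 ± 1.31 on high fat diet (log2 fold change -1.06, adjusted p = 0.0435, limma), the one marker of these lists past the threshold, which it missed without a filter (adjusted p = 0.0743). Leptin, Lep, another adipocyte hormone of this list, did not pass the filter. It had 17.3 ± 10.3 on chow and 78.1 ± 29.3 on high fat diet, without overlap. Without a filter its log2 fold change was 1.89 (adjusted p = 0.425, limma). The sums of the diets also overlapped for cardiac muscle markers, 13 of 13 with higher means, at 1095 to 4745 on chow and 1181 to 9134 on high fat diet. Median log2 fold changes were -0.12 for 9 smooth muscle, -0.07 for 6 fibroblast, -0.59 for 4 skeletal muscle and -0.52 for 4 liver markers above the filter. With the mean of the cardiac markers as a covariate, the log2 fold changes of the Cd36 probe sets 1423166_at, 1450884_at and 1450883_a_at were 0.87, 0.86 and 0.63. With the mean of the brown adipocyte markers they were 0.39, 0.74 and 0.41, of which that of 1450884_at had an unadjusted p under 0.05, and each had an adjusted p of 0.9999 in limma. The brown adipocyte mean was itself mostly higher on high fat diet, at -0.09, 0.47 and 0.31 in replicates 1, 2 and 3. On chow it was -0.35, -0.32 and -0.01. A fit with it as a covariate cannot tell its part in the Cd36 values from that of diet. The part of macrophages, endothelium and Schwann cells in the Cd36 values was not tested.

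**Figure D3:**
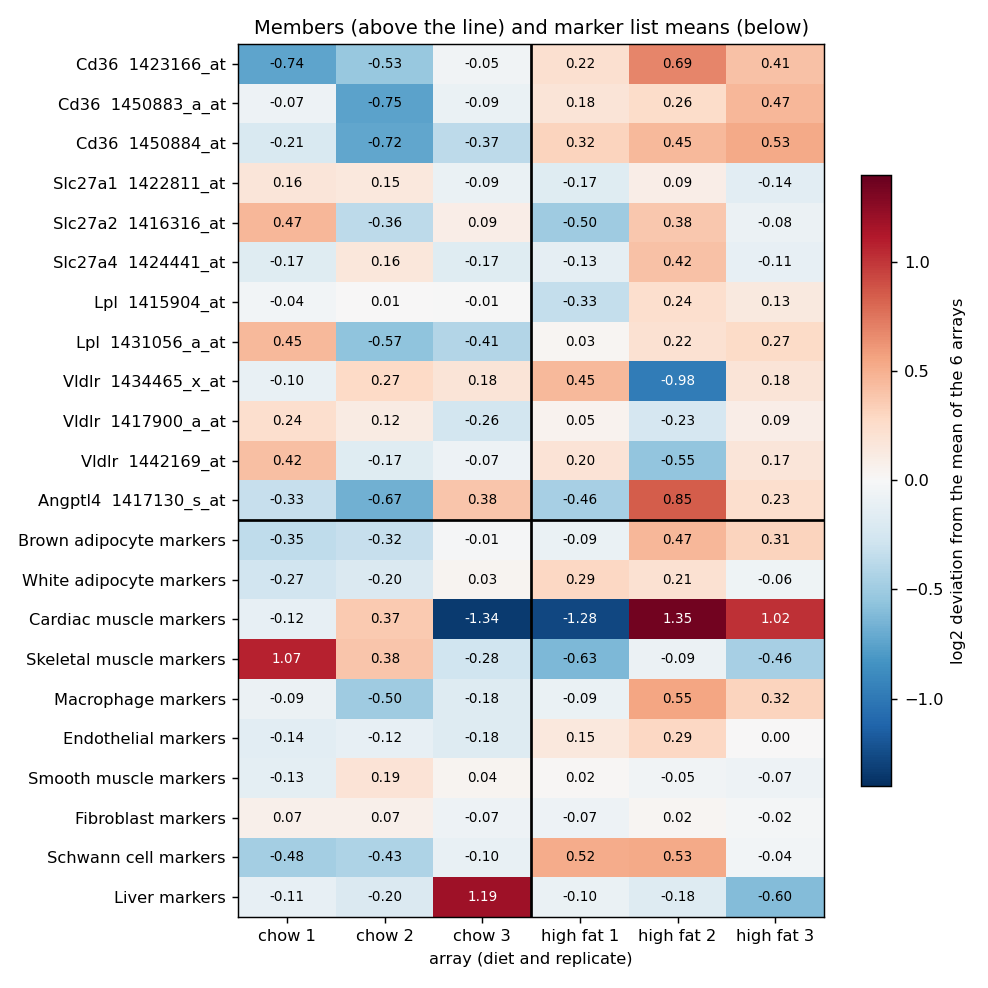
Log2 deviation of each array (columns) from the mean of the 6 arrays, for the 12 member probe sets above the filter and for the mean of each marker list (rows; red above and blue below the mean). Angptl4 is highest and 1434465_x_at of Vldlr lowest on high fat replicate 2, where cardiac, brown adipocyte, macrophage, endothelial and Schwann cell means are also highest.

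High fat replicate 2 stood out in several members and markers together. It had the highest signals of Cd36 by 1423166_at, Slc27a4, Slc27a3, Lpl by 1415904_at and Angptl4, and the lowest of Vldlr by 2 probe sets. On this array the mean log2 deviation was 1.35 for cardiac, 0.47 for brown adipocyte, 0.55 for macrophage, 0.29 for endothelial and 0.53 for Schwann cell markers, the highest of the 6 arrays in each of these 5 of 10 lists. For Schwann cell markers high fat replicate 1 was close, at 0.52. Angptl4 moved with the brown adipocyte mean in part: both were high on high fat replicates 2 and 3 and low on chow replicates 1 and 2. With that mean as a covariate the log2 fold change of Angptl4 was -0.66 (unadjusted p = 0.026, adjusted p = 0.9999, limma), against 0.41 without it. That mean was itself mostly higher on high fat diet, so the fit cannot tell its part from that of diet. The direction of Angptl4 is not settled by these arrays.

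Other genes of the pathway were taken from lists by role, with 1 probe set per gene. Among 8 partners of lipoprotein lipase and apolipoproteins above the filter, 2 had higher and 6 lower means on high fat diet, and the median of their log2 fold changes was -0.08. Apoc1, an apolipoprotein that hinders lipoprotein uptake and lipolysis, had 704.6 ± 98.3 on chow and 394.4 ± 125 on high fat diet, and its diets did not overlap. Its log2 fold change of -0.86 ± 0.21 (adjusted p = 0.402, limma) was the one in this list with an unadjusted p under 0.05. Apoc3, an inhibitor of lipoprotein lipase, had 73.8 on chow and 55.7 on high fat diet. Chow replicate 3 was highest at 113.1, and the other chow arrays, at 55.1 and 53.3, lay within the range of the high fat arrays. Apoe, the ligand for remnant receptors, had 1480 and 1367, and the diets overlapped for Apoc3 and Apoe. Lmf1, which helps lipoprotein lipase to fold, and Furin, a protease that cleaves it, had log2 fold changes of -0.09 and 0.10.

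Of 8 related lipases and lipoprotein receptors, 5 had higher means, with a median of 0.09. Lipe, the hormone-sensitive lipase inside adipocytes, had 501.8 ± 111.9 on chow and 723.5 ± 90.2 on high fat diet (log2 fold change 0.54, adjusted p = 0.549, limma). Mgll, which releases the last fatty acid of a glyceride, had 914.4 ± 184.7 and 1228 ± 57.1 (0.44, adjusted p = 0.586, limma). Hspg2, the heparan sulfate proteoglycan perlecan, had 655.1 and 776.5, with overlap. The diets overlapped for Lipe and not for Mgll, and neither passed the adjustment.

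Of 9 partners in fatty acid transport 4 had higher means, with a median of -0.02. Fabp3, a fatty acid binding protein of heart and other oxidative tissues, rose, with signals of 631.9, 784.3 and 589.6 on chow and 1853.1, 2386.1 and 2179.4 on high fat diet (log2 fold change 1.67, adjusted p = 0.00163, limma). It was the one gene of these lists that passed over all probe sets. Fabp5, a binding protein of skin, macrophages and adipocytes, had 374 ± 136.7 and 588.6 ± 133.4 (0.68, adjusted p = 0.586, limma). Scarb1, of the same family as Cd36 and a receptor for high density lipoprotein, had 121.2 ± 6.61 and 147.8 ± 6.96, a log2 fold change of 0.27 without overlap (adjusted p = 0.765, limma). Cav1 and Cavin1, which form caveolae, had -0.14 and -0.03. Of the acyl-CoA synthetases, Acsl5 had a log2 fold change of 0.35 and Acsl4 one of -0.25, neither with an unadjusted p under 0.05 in limma.

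PPAR targets outside the 8 members had higher means for all 8 above the filter, with a median log2 fold change of 0.53, and 4 had an unadjusted p under 0.05, against 4.28% of all genes. None passed adjustment over all probe sets in limma. Brown adipocyte markers, with a median of 0.50, and macrophage markers, with 0.60, moved the same way. With the cardiac mean as a covariate, a fit added after seeing the data, the median of the PPAR targets was 0.44 and 8 had positive values, and with the brown adipocyte mean it was 0.04 and 4 did. Since the brown adipocyte mean was itself mostly higher on high fat diet, that fit cannot tell its part from that of diet. The part of macrophages was not tested. Those of smallest p were Plin2, a lipid droplet coat protein, at 1.31 (adjusted p = 0.148), Cpt2, of mitochondrial fatty acid import, at 0.78 (adjusted p = 0.299), and Slc25a20, the carnitine carrier, at 0.69 (adjusted p = 0.452). Among the members named above as PPAR targets, Cd36 had 0.88, 0.87 and 0.61 by its 3 probe sets and Angptl4 0.41, while Slc27a1 had -0.15 and the Lpl probe sets 0.03 and 0.35. Plin2, Cpt2 and Slc25a20 belong to fatty acid lists already seen to be higher in these arrays, so that their direction is not independent of that choice.

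**Figure D4:**
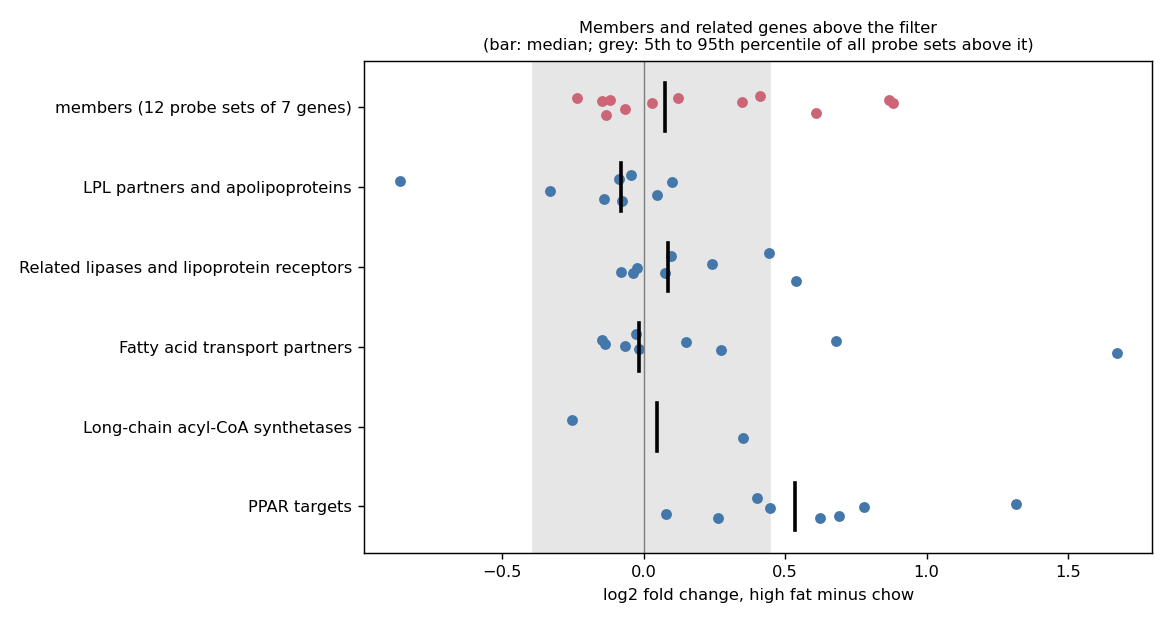
Log2 fold changes (high fat minus chow) of the member probe sets and of related genes by list, 1 point per probe set above the filter. Black bars are medians, and the grey band spans the 5th to the 95th percentile of all probe sets tested, -0.39 to 0.45. All 8 PPAR targets lie above 0, and Fabp3 is the point farthest to the right.

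For each member, the genes of most similar profile were found as those with the smallest root mean square difference of log2 deviations over the 6 arrays among 8211 genes. For Cd36, by 1423166_at, they were Chchd10, a mitochondrial protein of the cristae, at 0.0524, and Ceacam9 and Car9 at 0.0960 and 0.110, where the median gene stood at 0.531. For Lpl they were Arhgdib, Atp13a2 and Atp1b1, at 0.0358 to 0.0658, and for Slc27a1 Nucb1, Lmna and Kyat3, at 0.0329 to 0.0478. Slc27a4 was closest to Mgat1, Rap2b and Taf10, at 0.0479 to 0.0567, and Slc27a2 to Hnmt, Actl6a and Add3, at 0.0986 to 0.140. Vldlr, by 1434465_x_at, was closest to Cdk12, Bmpr1a and Emc2, at 0.0855 to 0.166. Angptl4 had the least similar neighbours, Orm1, Syk and Hopx, at 0.167 to 0.215. These are descriptions over 6 arrays that share the same pools, and none of the members shared a nearest gene.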

How the data were processed

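The authors deposited signal intensities on a linear scale for 6 arrays, made with MAS5 per the submitters' processing notes; its version is not given in the sources used here. No detection calls were used. Probe sets took their names from the platform annotation: of 22690, 64 controls were left out, 20380 had 1 symbol, 691 several and 1555 none, and those with several named no gene. The pseudocount of 6 is the 10th percentile of signals rounded. The 13575 probe sets with a mean log2(signal + 6) over the 40th percentile entered a two-sided limma 3.58.1 fit in R 4.3.3 (lmFit, then eBayes with trend), adjusted by Benjamini-Hochberg over all of them. These steps were tested on simulated data. Lists used the probe set of highest mean signal per gene, and the text names the 3 genes of smallest p per pathway list, list genes past the threshold, and some picked after their values were seen. Marker lists are given as summaries, with a few genes named after their values were seen. Members and lists were chosen with earlier results of these data known. Arrays of the same number correlated at 0.03, 0.17 and -0.11 in their deviations from diet means, so numbers were not taken to pair arrays. Python 3.11.15, pandas 2.3.3 and matplotlib 3.10.9 made tables and figures. The small number of arrays limits the precision.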

Additional observations from a re-analysis of the deposited data

How the results depend on the processing

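Each fit was repeated with another pseudocount (1 or 21), another filter (none, or the 60th percentile), quantile scaling or medians set equal, a robust or untrended variance, the replicate number as a block, a cardiac or a brown adipocyte marker covariate, 1 probe set per gene, and each array left out. No member probe set passed an adjusted p of 0.05 in any of these limma fits, and the 3 Cd36 probe sets kept their direction in every fit that tested them. The 3 member probe sets higher with an unadjusted p under 0.05 became 1 with the brown adipocyte covariate and 1 with 1 probe set per gene, which leaves a single Cd36 probe set to count, and 3 to 4 with arrays left out. With the replicate block the log2 fold change of Cd36 was 0.88 by 1423166_at (adjusted p = 0.279, limma), and again 3 member probe sets had an unadjusted p under 0.05. The 10 probe sets past the threshold over the whole array became 6 with no filter, 5 with an untrended variance, 5 with the replicate block, 6 with the cardiac and 1 with the brown adipocyte covariate, 6 with 1 probe set per gene, and 5 to 16 with arrays left out. That count was 5 when high fat replicate 2 or chow replicate 2 was left out and 16 when it was high fat replicate 1.

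Signs turned for some members, all with an adjusted p over 0.05. With the brown adipocyte covariate log2 fold changes became -0.66 for Angptl4, -0.32 for Lpl 1415904_at, -0.073 for Slc27a4, and 0.24, 0.42 and 0.32 for Vldlr 1417900_a_at, 1434465_x_at and 1442169_at. Lpl 1415904_at was -0.016 with medians set equal and -0.084 with the cardiac covariate. With arrays left out, Lpl 1415904_at ranged from -0.085 to 0.20, Slc27a2 from -0.36 to 0.082, Slc27a4 from -0.058 to 0.23, and Vldlr 1417900_a_at, 1434465_x_at and 1442169_at from -0.21 to 0.038, -0.52 to 0.20 and -0.25 to 0.12. The turn came from leaving out high fat replicate 2 for Lpl, Slc27a4 and all 3 Vldlr probe sets. Leaving out high fat replicate 3 also turned Lpl, leaving out chow replicate 1 turned Slc27a2 and 2 Vldlr probe sets, and leaving out high fat replicate 1 turned Slc27a2. Why they turned was not tested. Dim signals cannot be told from background here, which limits Slc27a3 and the dim probe sets of Vldlr and Angptl4.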
